A study of Mus musculus with 32 samples.

Results

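The livers compared here came from 6 male wild-type C57BL/6 mice killed at ZT10 at 30 weeks of age, 3 that had lived under chronic jet lag and 3 that had lived under a steady light cycle. They are the 6 of 32 arrays in the series whose labels name that time and age, and each array holds the liver RNA of 1 mouse. ZT is the number of hours since lights came on, so ZT10 falls late in the light phase of the steady schedule. Steady mice had 12 h of light and 12 h of dark. Starting at 4 weeks of age, jet-lagged mice were taken back and forth between a pair of rooms whose light onsets lay 8 h apart. All mice were housed singly and carried no engineered allele. The labels do not say how long before collection the last move took place, nor to which room's light onset the ZT of a jet-lagged mouse refers. The rest of the series holds the same schedules at ZT2, ZT10 and ZT18 at 12 weeks and at ZT2 and ZT18 at 30 weeks, with 2 mice a group at ZT2 and 3 otherwise.

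The circadian clock of the liver is a loop of transcription factors. BMAL1 (encoded by Arntl) and CLOCK bind E-boxes and switch on the period and cryptochrome genes, whose proteins turn BMAL1 and CLOCK off again, and a side loop of REV-ERB repressors and ROR activators acts on Arntl itself through RORE sequences. Factors of the PAR bZIP family such as DBP carry the rhythm to metabolic genes, and NFIL3 opposes them at the same D-box sites. In mouse liver Arntl is known to reach its low point late in the light phase, when Dbp and the period genes are high.

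Levels below are on the log2 scale, with the 75th percentile of each array's processed signal subtracted, so 0 is the 75th percentile of all probes on that array and a step of 1 is 2-fold. The 75th percentile of the signal ranged from 160 to 279 on the 6 arrays, 45.8% to 52.9% of probes were well above background, and arrays of a group correlated at r = 0.983 to 0.989 over all genes tested. Hepatocyte markers were high on every array, with all 14 measured members well above background and a mean level of 8.64 to 8.96. Markers of other tissues were uneven. The 24 measured skeletal muscle markers (of 26 listed) had a mean level of -3.35, -1.34 and -3.22 on the steady arrays and 3.05, -3.01 and 0.54 on the jet-lagged arrays, with 8 to 20 and 16 to 24 of them well above background. The 20 measured pancreatic acinar markers (of 38 listed) stood at -2.06, 1.53 and -2.61 against -1.81, 0.87 and 0.86, with 12 to 20 and 15 to 20 well above background. The fitted difference was above 0 in 23 of the 24 muscle and 17 of the 20 acinar markers, where 47.4% of all tested lay above 0. Their medians were 3.23 and 0.66, beside -0.01 over all tested. In limma 13 of the 24 muscle markers were higher under jet lag at an unadjusted p under 0.05 (4.4% of all tested were higher and 6.72% lower). None of the markers passed the test between schedules, and the range of the list mean overlapped between the groups in both lists. Steady mouse 2 had the highest acinar mean and jet-lagged mouse 1 the highest muscle mean, and these 2 arrays share a slide, the only one of theirs that holds both schedules. In whole liver, fewer cells of a type and less RNA per cell cannot be told apart.

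**Figure D1:**
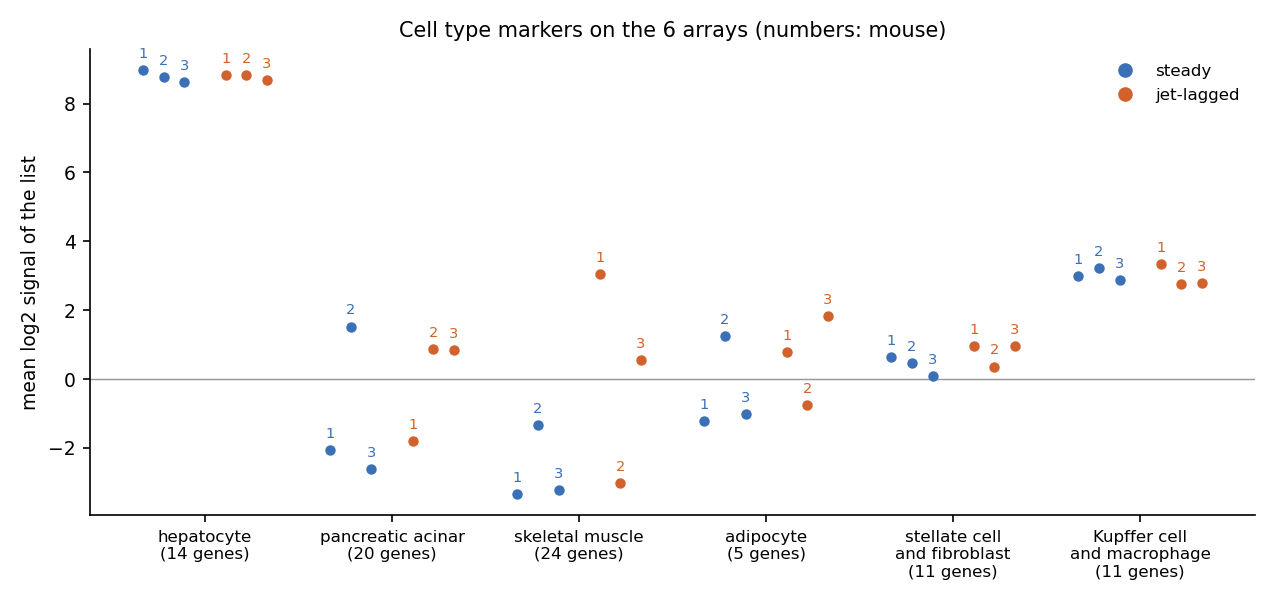
Mean log2 signal (vertical axis, relative to the array's 75th percentile) of 6 lists of cell type markers on each of the 6 arrays, blue for steady and orange for jet-lagged mice, with the mouse's number above its point. Hepatocyte markers lie between 8.64 and 8.96 on all 6 arrays, whereas muscle markers run from -3.35 to 3.05 and acinar markers from -2.61 to 1.53.

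Of 26320 genes and unnamed probes tested, 140 differed between the schedules at adjusted p under 0.05 (0.532%), 49 of them higher under jet lag (0.186%) and 91 lower (0.346%). Of the 140, 108 carry a gene symbol, and 138 had values that did not overlap between the 3 jet-lagged and the 3 steady mice. Over all tested, 5.35% lay wholly above and 8.53% wholly below the steady mice. The higher ones moved by a median of 1.06 on the log2 scale and the lower ones by -0.63, and 29 of the higher and 20 of the lower moved at least 2-fold. Genes known for the clock (Arntl, Nfil3) and for fatty acid conjugation (Acnat2) were among the largest increases. The largest decreases included Chrna4, a nicotinic receptor subunit, Lipg, the endothelial lipase, and Aqp8, a water channel of hepatocytes. Adjusted p values come from a moderated limma fit over all 32 arrays with the slide as a random block, whose estimates can differ from a difference of group means. The number of calls rested on single mice. In limma it fell to 0 without steady mouse 1 (adjusted p under 0.05; 2008 at an unadjusted p under 0.05), to 13 without steady mouse 2, to 63 without jet-lagged mouse 1 and to 43 without jet-lagged mouse 2, and rose to 422 without steady mouse 3. With the slide as a fixed block 8 passed, and with the acinar and muscle marker means as covariates 11 did. All 140 kept their direction in each of these fits, which is no sign of stability where the groups do not overlap. The balance of directions was not stable: 65.0% of the calls were lower, against 75.8% with normexp background correction, 45.5% with the marker covariates, 39.5% without jet-lagged mouse 2 and 33.3% without steady mouse 2 and jet-lagged mouse 1.

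The promoters of 3 clock genes and of Aqp8 are printed here because they hold the RORE and E-box letters named above. They run from 250 bases before to 50 bases after a gene's start in RefSeq on the GRCm38.p6 build, read 5′ to 3′ on the gene's own strand, and the matched motif is in capitals. Both genes of the clock lists that rose, Arntl and Nfil3, hold the RORE letters TAGGTCA (or the reverse, TGACCTA), in Arntl just after the start of 1 of its 2 listed promoters and in Nfil3 just before its start. Ciart, a repressor of CLOCK and BMAL1 that was lower in all 3 jet-lagged mice without passing the test, holds 3 E-boxes (CACGTG), and Aqp8, which fell, holds 1.
Arntl, chr7:113207261-113207560, plus strand: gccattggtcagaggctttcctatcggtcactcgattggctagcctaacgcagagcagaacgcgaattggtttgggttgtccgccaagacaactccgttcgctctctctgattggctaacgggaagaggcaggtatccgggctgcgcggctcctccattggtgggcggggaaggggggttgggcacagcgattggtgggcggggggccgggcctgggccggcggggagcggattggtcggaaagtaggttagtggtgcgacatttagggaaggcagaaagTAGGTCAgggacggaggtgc
Nfil3, chr13:52980990-52981289, minus strand: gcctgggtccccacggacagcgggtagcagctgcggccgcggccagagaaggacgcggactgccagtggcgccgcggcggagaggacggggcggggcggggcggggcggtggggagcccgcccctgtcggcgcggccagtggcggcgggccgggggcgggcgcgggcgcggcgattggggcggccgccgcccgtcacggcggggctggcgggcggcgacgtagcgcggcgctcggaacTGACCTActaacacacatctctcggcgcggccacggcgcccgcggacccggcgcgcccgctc
Ciart, chr3:95882179-95882478, minus strand: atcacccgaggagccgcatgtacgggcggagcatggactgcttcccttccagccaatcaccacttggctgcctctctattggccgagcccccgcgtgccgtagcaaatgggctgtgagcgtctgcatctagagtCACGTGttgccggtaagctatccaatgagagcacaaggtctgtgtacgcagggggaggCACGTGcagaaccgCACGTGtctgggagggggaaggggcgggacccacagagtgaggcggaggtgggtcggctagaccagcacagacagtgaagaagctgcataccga
Aqp8, chr7:123462044-123462343, plus strand: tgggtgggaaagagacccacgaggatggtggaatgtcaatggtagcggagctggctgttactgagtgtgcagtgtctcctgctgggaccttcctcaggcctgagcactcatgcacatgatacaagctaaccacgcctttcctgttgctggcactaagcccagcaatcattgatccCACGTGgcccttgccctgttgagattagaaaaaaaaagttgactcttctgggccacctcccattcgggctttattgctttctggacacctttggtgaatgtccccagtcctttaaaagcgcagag
Searched on both strands, TAGGTCA stood in 3 of 32 promoters of genes that rose (9.38%), the other one being Caln1, in 2 of 90 of genes that fell (2.22%) and in 2.61% of the 32851 promoters in the RefSeq table. CACGTG stood in 1 of 32 promoters of genes that rose (3.12%), in 12 of 90 of genes that fell (13.3%), in 6 of 32 of the clock genes (18.8%) and in 7.15% of all. The 12 belong to Aqp8, Armc9, Ccdc61, Ctc1, Eva1a, Fgfrl1, Krt23, Osbpl8, Retreg1, Tbcel, Tmem131l and Tubb5, and the 1 among genes that rose to Nr0b2. The 6 of clock genes belong to Bhlhe41, Ciart, Cry1, Per1 and both listed promoters of Tef. Of these clock genes, Cry1 was higher in all 3 jet-lagged mice and the others lower, and none passed. The D-box letters TTATGTAA or TTACGTAA were in 0 of the 32 and 0 of the 90 against 1.06% of all, and the heat shock element GAANNTTC was in 2 and 4 of them (6.25% and 4.44%) against 7.86% of all. Some genes have more than 1 promoter in the table. A match is a description of the letters in this window and not a measured site.

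Among the 28 measured genes of the 6 clock lists, 2 were called higher and 0 lower, beside 0.186% and 0.346% of all tested. A further 3 lay wholly above and 6 wholly below the steady mice without passing, where 5.35% and 8.53% of all tested lay so, called ones included. The activator Arntl had the largest increase among the genes that passed. Its level was -5.08, -3.33 and -4.61 in the steady mice and -1.80, -1.24 and -1.25 in the jet-lagged mice, so every jet-lagged mouse lay above every steady mouse. The fitted difference was 2.75 ± 0.50 (SE), adjusted p = 0.0159. The gene was well above background on all 3 jet-lagged arrays but on only 1 of the 3 steady arrays, which limits how precisely its size is known. Its partner Clock stood at -1.03, -0.94 and -0.68 in the steady mice and -0.58, -0.47 and -0.05 in the jet-lagged mice. The groups did not overlap, yet the difference of 0.53 ± 0.18 (SE) did not pass (adjusted p = 0.213). Npas2, a paralogue of Clock, was not well above background on any of the 6 arrays, so no fold is given.

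The repressor Nfil3 rose as the second clock gene. Its level was 1.81, 1.93 and 1.63 in the steady mice and 3.51, 3.35 and 3.11 in the jet-lagged mice, with a spread within each group far smaller than the gap between them, and the difference was 1.48 ± 0.26 (SE), adjusted p = 0.0134. Its counterparts of the PAR bZIP family did not pass. Dbp had levels of 7.28, 6.92 and 6.60 in the steady mice and 6.05, 5.57 and 5.56 in the jet-lagged mice. All 3 jet-lagged mice were lower, by -1.05 ± 0.43 (SE) on the log2 scale, with adjusted p = 0.328. Tef, which differed by -0.28 ± 0.20 (SE, adjusted p = 0.659), was lower in all 3 jet-lagged mice as well, and Hlf overlapped.

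In the negative limb no gene passed, although several had separate groups. Cry1 was -4.74, -4.01 and -2.50 in the steady mice and -2.49, -2.22 and -2.02 in the jet-lagged mice. Each jet-lagged mouse was higher than each steady mouse, though steady mouse 3 nearly met the lowest of them. The difference of 1.40 ± 0.34 (SE) missed the threshold (adjusted p = 0.0639), and only 1 of the steady arrays was well above background for it. Bhlhe41 (DEC2), a repressor that binds E-boxes, was -1.81, -2.40 and -2.94 in the steady mice and -3.96, -3.55 and -4.40 in the jet-lagged mice, a difference of -1.49 ± 0.36 (SE) with adjusted p = 0.0639. Only 1 of the jet-lagged arrays was well above background for it, so the size is uncertain. Ciart was 1.25, 1.22 and 0.75 in the steady mice and 0.43, -0.08 and -0.27 in the jet-lagged mice, a difference of -0.96 ± 0.45 (SE) with adjusted p = 0.425. Both lay lower in all 3 jet-lagged mice. Cry2 and Bhlhe40 overlapped between groups.

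The period genes showed no common direction. Per1 was 3.93, 3.62 and 3.68 in the steady mice and 3.40, 3.54 and 3.34 in the jet-lagged mice, which do not overlap. Per2 was -1.17, -1.20 and -0.24 in the steady mice and -0.77, 0.63 and -0.49 in the jet-lagged mice. Per3 was -0.86, -1.27 and -1.13 in the steady mice and -1.36, -1.23 and -1.13 in the jet-lagged mice, and both of these overlapped. Their fitted differences were -0.14 ± 0.36, 0.64 ± 0.30 and -0.01 ± 0.35 (SE), with adjusted p of 0.946, 0.428 and 0.998. For Per1 and Per3 the gap between the group means was clearly wider than the fitted difference, which also uses the slide.

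No nuclear receptor of the side loop named here passed either. Nr1d1 (REV-ERB alpha), the repressor of Arntl, was 1.69, 0.93 and -0.05 in the steady mice and 0.04, -0.06 and -0.81 in the jet-lagged mice. The mean was lower under jet lag, but steady mouse 3 lay among the jet-lagged mice, and the difference of -0.94 ± 0.56 (SE) had adjusted p = 0.574. Nr1d2 overlapped. Rora differed by -0.11 ± 0.19 (SE), and Rorb was well above background on only 1 of the 6 arrays. None of the 7 kinase and ubiquitin enzyme genes passed, and their differences ran from -0.29 to 0.32. Of these, Usp2 was lower in all 3 jet-lagged mice (4.02, 3.88 and 3.76, against 4.39, 4.21 and 4.37 in steady mice) without passing (adjusted p = 0.857).

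**Figure D2:**
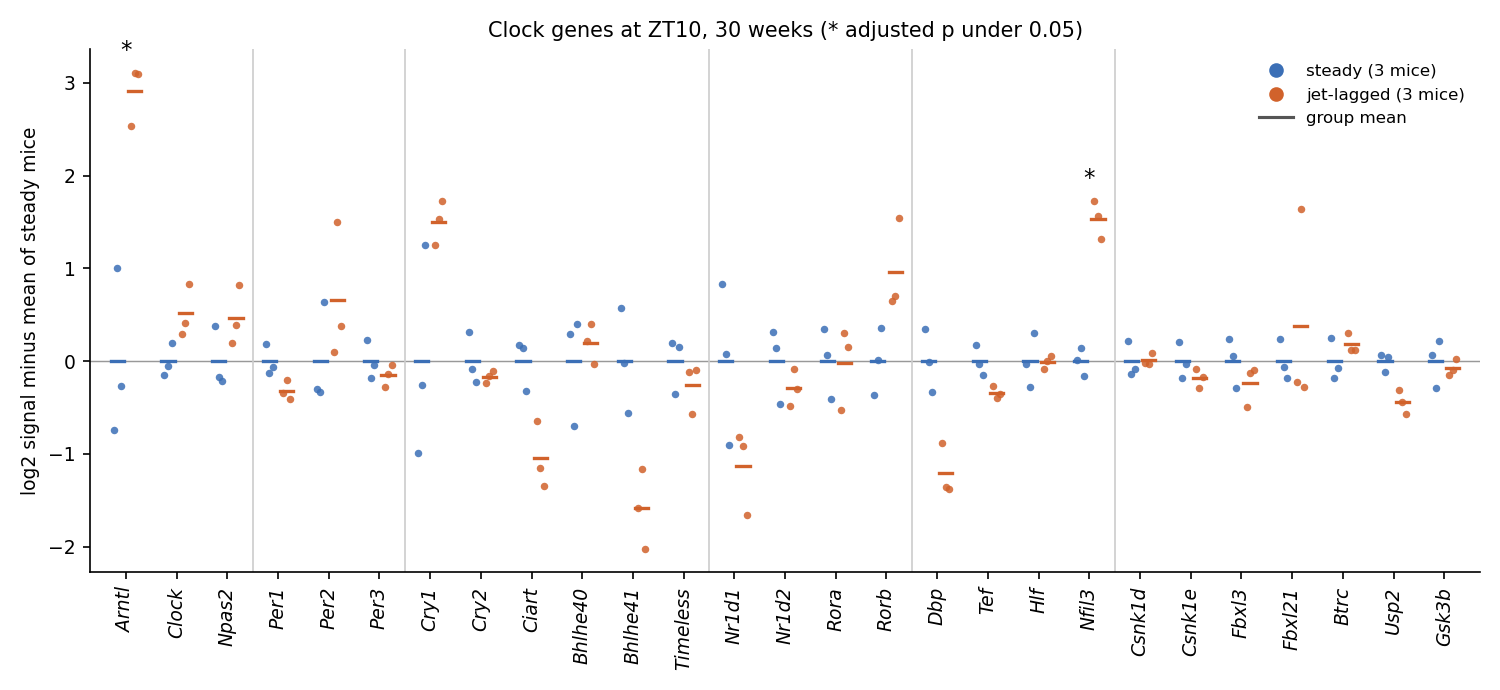
Log2 signal of measured clock genes at ZT10, 30 weeks, minus the mean of the 3 steady mice, with points for mice (blue steady, orange jet-lagged), bars for group means, and an asterisk for adjusted p under 0.05; vertical lines part activators, period genes, repressors, REV-ERB and ROR receptors, PAR bZIP factors with Nfil3, and enzymes. Arntl and Nfil3 stand apart upwards, and Ciart, Bhlhe41 and Dbp lie below the steady mice without an asterisk.

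Clock output genes of the liver gave 0 calls among 28 measured, with a median difference of 0.10, beside -0.01 over all tested. At an unadjusted p under 0.05, 9 were higher and 1 lower, beside 4.4% and 6.72% of all tested. Of these 28, 7 lay wholly above and 2 wholly below the steady mice, beside 5.35% and 8.53% of all tested. Pdk4, a kinase that holds back pyruvate oxidation, was -1.49, -1.47 and -0.44 in the steady mice and -0.09, -0.38 and 0.23 in the jet-lagged mice, and Nampt, the enzyme of the NAD salvage route, was 1.87, 2.17 and 2.12 in the steady mice and 2.75, 2.77 and 2.87 in the jet-lagged mice. Their differences were 1.11 ± 0.37 and 0.71 ± 0.22 (SE), with adjusted p = 0.206 and 0.162.

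The same mice can be set beside the other times of day at 30 weeks. In steady mice Arntl swung over 6.24 log2 units across ZT2, ZT10 and ZT18, with group means lowest at ZT10, whereas in jet-lagged mice the group means spanned 0.78. At ZT18 the order of the schedules was the other way round, with Arntl at 1.57, 1.46 and 1.37 under the steady schedule against -0.76, -0.71 and -1.07 under jet lag. The range of the group means was smaller under jet lag in 23 of the 28 clock genes, with a median range of 1.99 in steady and 0.70 in jet-lagged mice. ZT2 has only 2 mice a group, and these ranges were not tested. The same share was not computed over all genes tested, so a smaller range is not shown to be particular to clock genes. The 28 include dim genes such as Npas2 and Rorb, and genes with little range in steady mice, such as Rora (0.49). For Arntl the 2 jet-lagged mice at ZT2 stood at -2.15 and 0.86, against 1.87 and 1.93 in the steady mice. Ciart (-0.64 and -2.43) and Usp2 (3.40 and 0.66) were also uneven in the jet-lagged mice at ZT2, while Cry2 (3.58 and 3.62) was not. A narrow range of means is thus no sign that each jet-lagged mouse held a level value. Steady means were lowest at ZT10 in 9 and highest at ZT10 in 13 of the 28.

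Whether the schedule difference itself changed between ZT10 and ZT18 was tested, and it did for 425 of 26320 genes and probes (1.61%), 173 with a more positive difference at ZT10 (0.657%) and 252 with a more negative one (0.957%). The clock lists held 5 and 6 of them. For Arntl the difference at ZT10 exceeded that at ZT18 by 4.92 ± 0.73 (SE, adjusted p = 0.0014). Nfil3 had a level of 4.09, 3.84 and 4.10 in steady and 3.40, 3.12 and 3.10 in jet-lagged mice at ZT18, and its ZT10 difference exceeded that at ZT18 by 2.25 ± 0.38 (SE, adjusted p = 0.00266). Dbp went the opposite way. It stood at 1.86, 2.32 and 2.55 in steady and 5.43, 5.36 and 5.52 in jet-lagged mice at ZT18, and the contrast of the differences was -4.11 ± 0.62 (SE, adjusted p = 0.0014). For Nr1d1 that contrast was -5.18 ± 0.81 (SE, adjusted p = 0.00167), from -3.42, -4.96 and -6.28 in steady and -0.81, -0.77 and -0.58 in jet-lagged mice at ZT18. Outside the clock lists, Acnat2 stood at 2.60, 2.04 and 2.32 in steady and 1.92, 1.61 and 1.29 in jet-lagged mice at ZT18, and its contrast was 2.70 ± 0.54 (SE, adjusted p = 0.0109). Rgs16, a regulator of G protein signalling with a known daily rhythm in liver, had the most negative contrast of the genes named here, -5.42 ± 1.37 (SE, adjusted p = 0.0443), with steady mice at 4.19 to 5.30 and jet-lagged mice at 3.42 to 4.31 at ZT10, and -1.21, -1.26 and -1.20 against 3.92, 3.99 and 3.98 at ZT18. At ZT18, in other mice, 10 of the 49 increases and 51 of the 91 decreases seen at ZT10 had the same direction. Their median differences at ZT18 were -0.30 and -0.03, beside -0.02 over all tested.

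The count of 425 fell to 236 without steady mouse 2 of ZT10, to 281 without jet-lagged mouse 3 of ZT10, to 189 without steady mouse 2 of ZT18 and to 278 without jet-lagged mouse 1 of ZT18. With the acinar and muscle marker means as covariates it was 255.

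**Figure D3:**
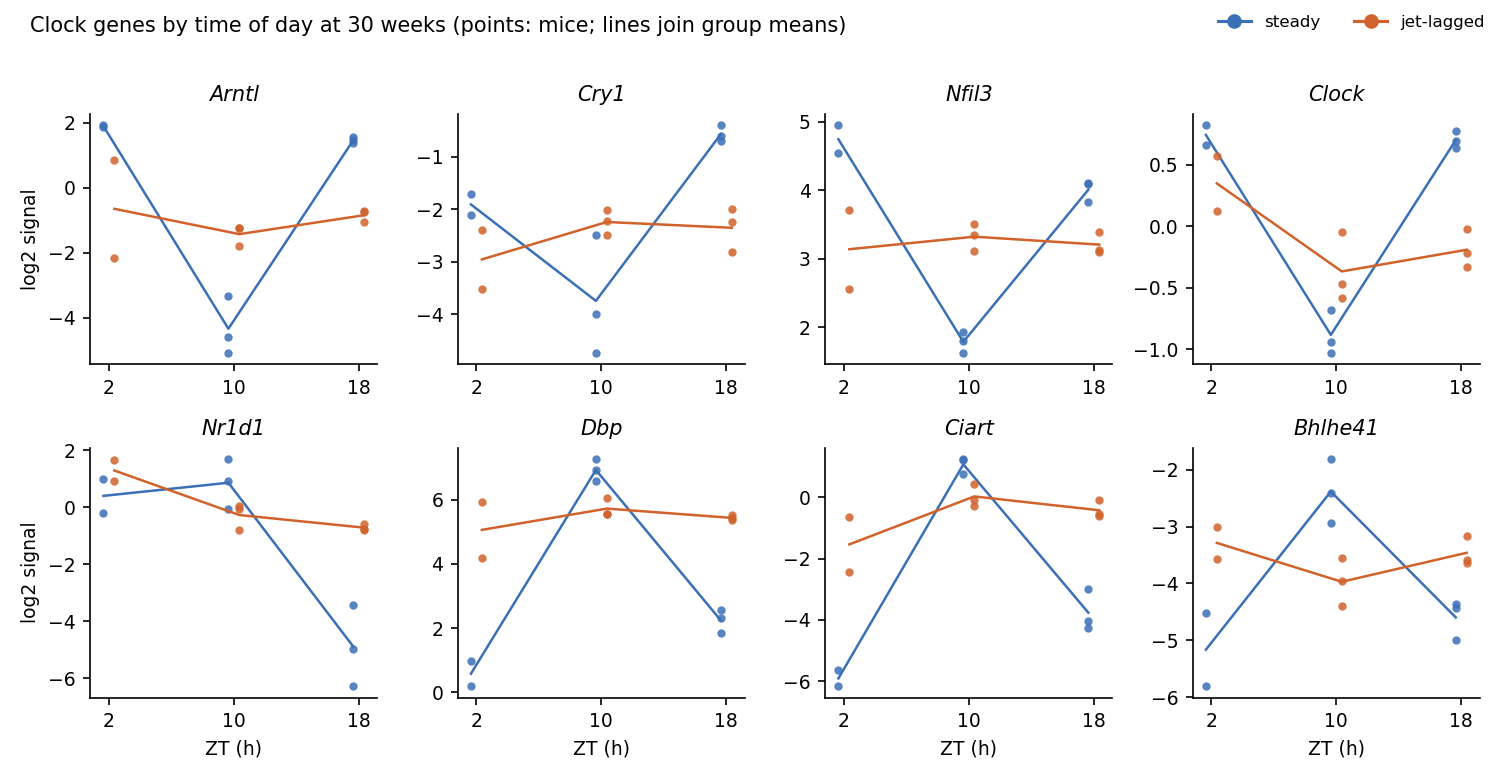
Log2 signal (vertical axis, scale set per gene) of 8 clock genes against ZT in hours at 30 weeks, blue for steady and orange for jet-lagged mice; points are mice (2 a group at ZT2, otherwise 3) and lines join group means. Blue lines swing widely, with Arntl, Cry1, Nfil3 and Clock lowest at ZT10 and Dbp, Ciart and Bhlhe41 highest there, while the orange lines stay flatter. The 2 orange points at ZT2 lie far apart for Arntl, at -2.15 and 0.86, so a flat line of means does not show level mice.

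Outside the clock, the genes that rose most by more than 2-fold were of mixed kind. Acnat2, a peroxisomal enzyme that conjugates fatty acids with amino acids, was -0.65, -0.28 and 0.34 in the steady mice and 1.17, 1.90 and 2.55 in the jet-lagged mice. The groups were apart, by 1.99 ± 0.37 (SE), adjusted p = 0.0176. Dnah6, an axonemal dynein heavy chain, was -4.21, -3.26 and -2.88 in the steady mice and -2.28, -1.34 and -1.25 in the jet-lagged mice, a difference of 1.64 ± 0.29 (SE), adjusted p = 0.0143. Gpc3 (glypican-3), a cell surface proteoglycan known as a marker of liver tumours, was -3.65, -3.06 and -3.97 in the steady mice and -2.57, -1.05 and -2.54 in the jet-lagged mice. It rose by 1.55 ± 0.33 (SE), adjusted p = 0.0332, but it was dim, with 1 of 3 steady arrays well above background. Epha2, an ephrin receptor tyrosine kinase, was 1.30, 0.64 and 2.15 in the steady mice and 2.45, 2.89 and 2.93 in the jet-lagged mice, a difference of 1.41 ± 0.24 (SE), adjusted p = 0.0125. Apod, a lipocalin that carries lipids, was -1.93, -1.59 and -2.65 in the steady mice and -0.58, -1.54 and -0.39 in the jet-lagged mice. It rose by 1.32 ± 0.29 (SE), adjusted p = 0.0402, with the groups only just apart.

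A pair of vomeronasal receptor genes also passed. Vmn2r62 was well above background on all 3 jet-lagged and on 0 of 3 steady arrays. That gives a level at least 1.65-fold higher under jet lag when the steady arrays are set to the dimmest signal that counts as measured (adjusted p = 0.0225). A probe was tested if every array of some group had it well above background. For Vmn2r62 the jet-lagged group met this and the steady group did not, so its entry into the test may rest on the values compared. Vmn1r194 was well above background on 1 of the 6 arrays, so no fold is given for it. Atf3, a transcription factor induced by stress, was -2.96, -2.66 and -2.97 in the steady mice and -1.90, -1.35 and -1.76 in the jet-lagged mice and rose by 1.13 ± 0.25 (SE), adjusted p = 0.0414, a call that was lost whichever of the 6 mice was left out. Nat8f5, an acetyltransferase-like gene, stood at 2.80, 2.68 and 3.65 in the steady mice and 3.97, 4.11 and 4.37 in the jet-lagged mice and rose by 1.09 ± 0.18 (SE), adjusted p = 0.0125.

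Among the genes that fell, Chrna4 had the largest change. It was -0.51, -2.72 and -1.68 in the steady mice and -5.88, -6.08 and -3.85 in the jet-lagged mice, so each jet-lagged mouse lay below each steady mouse, and only 1 of the 3 jet-lagged arrays was well above background. The difference was -3.28 ± 0.58 (SE), adjusted p = 0.0135. Lipg, which hydrolyses phospholipids of HDL, was -3.01, -3.24 and -2.36 in the steady mice and -5.11, -5.01 and -3.78 in the jet-lagged mice, a difference of -1.80 ± 0.36 (SE), adjusted p = 0.0251, again with 1 of 3 jet-lagged arrays well above background. Aqp8 was bright on all arrays, at 7.33, 6.94 and 6.62 in the steady mice and 5.05, 4.77 and 6.01 in the jet-lagged mice. It fell by 1.58 ± 0.28 (SE, adjusted p = 0.0135), with jet-lagged mouse 3 nearest to the steady mice. Krt23, a keratin, differed by -1.39 ± 0.30 (SE), adjusted p = 0.0371. Ccnd1 (cyclin D1), which drives cells from G1 into S phase, was 3.33, 3.31 and 3.50 in the steady mice and 2.19, 2.21 and 2.28 in the jet-lagged mice. Both groups were tight, and the difference was -1.19 ± 0.22 (SE), adjusted p = 0.0176. Sipa1l2, Adgrf1, Defb1 (a beta-defensin), Neil2 (a DNA glycosylase) and Eepd1 completed the 10 largest decreases, with differences of -1.31, -1.20, -1.18, -1.14 and -1.14.

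**Figure D4:**
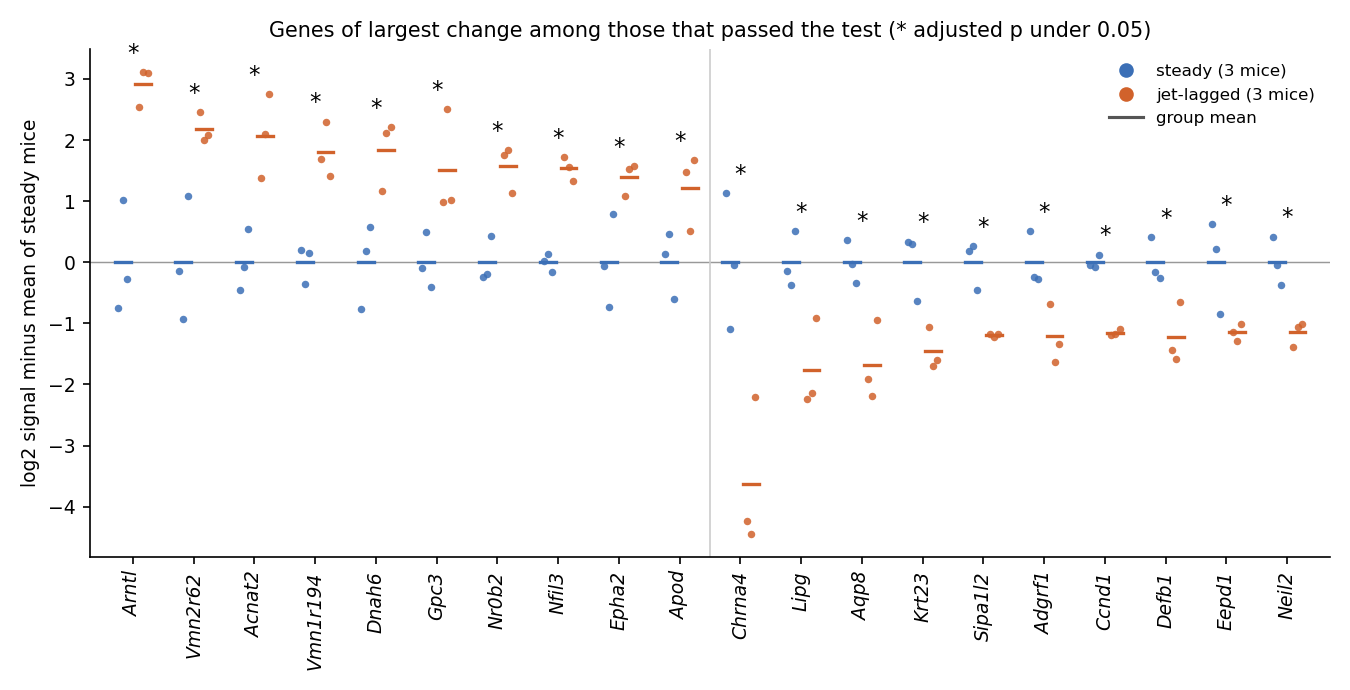
Log2 signal of the 10 genes with the largest increase (left) and the 10 with the largest decrease (right) among those that passed and whose groups do not overlap, minus the mean of the 3 steady mice; points are mice (blue steady, orange jet-lagged), bars are group means and asterisks mark adjusted p under 0.05. Orange points lie wholly above the blue ones on the left and wholly below them on the right, Ccnd1 and Sipa1l2 with little spread among jet-lagged mice and Chrna4 with much.

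A few genes still passed when the acinar and muscle marker means entered the fit. With a symbol these were Epha2 and Caln1, which rose, and Sipa1l2, Slc5a6, Casp6 and Slc25a22, which fell. Casp6, a caspase, had the smallest p of all genes and was 3.03, 2.94 and 2.63 in the steady mice and 2.07, 1.97 and 1.87 in the jet-lagged mice, a difference of -0.89 ± 0.13 (SE), adjusted p = 0.012. Slc5a6, the sodium-dependent carrier of biotin and pantothenate, was 3.26, 3.28 and 2.97 in the steady mice and 2.22, 1.86 and 2.10 in the jet-lagged mice, a difference of -1.07 ± 0.19 (SE), adjusted p = 0.0125. Sipa1l2, a GTPase activator for Rap, was 1.98, 2.05 and 1.33 in the steady mice and 0.61, 0.57 and 0.61 in the jet-lagged mice, a difference of -1.31 ± 0.21 (SE), adjusted p = 0.0125. Slc25a22, a mitochondrial glutamate carrier, fell by 0.79 ± 0.14 (SE, adjusted p = 0.0135), and Caln1, a calcium-binding protein gene, rose by 0.98 ± 0.19 (SE, adjusted p = 0.0241).

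Few bile acid genes passed. Of 19 measured members of bile acid synthesis and FXR signalling, 1 was higher and 3 lower at an unadjusted p under 0.05, beside 4.4% and 6.72% of all tested. After adjustment 1 rose and 0 fell, beside 0.186% and 0.346% of all tested. That gene was Nr0b2 (SHP), the repressor that FXR induces against bile acid synthesis, at -0.63, -0.59 and 0.04 in the steady mice and 1.35, 1.43 and 0.73 in the jet-lagged mice. It rose by 1.50 ± 0.34 (SE), adjusted p = 0.0489, the weakest call among the 10 largest increases. Cyp8b1, the sterol 12-hydroxylase that SHP is known to repress, was 3.41, 3.25 and 2.12 in the steady mice and 2.72, 1.74 and 3.28 in the jet-lagged mice and did not pass (adjusted p = 0.67). Of 19 measured bile salt, sterol and phospholipid transporters, 1 was higher and 1 lower at an unadjusted p under 0.05. After adjustment 0 rose and 1 fell, Abcb11, the bile salt export pump. It was 6.62, 6.36 and 6.31 in the steady mice and 5.85, 5.78 and 6.02 in the jet-lagged mice, a difference of -0.52 ± 0.09 (SE), adjusted p = 0.0143.

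In lipid metabolism, 32 measured genes that make fatty acids and triglycerides gave 1 decrease and 0 increases. Their median was -0.09, with 23 of 32 below 0. At an unadjusted p under 0.05, 1 was higher and 9 lower, beside 4.4% and 6.72% of all tested. Acsl5, an acyl-CoA synthetase, was 5.08, 4.96 and 4.82 in the steady mice and 4.44, 4.41 and 4.51 in the jet-lagged mice, a difference of -0.47 ± 0.10 (SE), adjusted p = 0.0297. Acss2 and Elovl5 were lower in all 3 jet-lagged mice, by -1.03 ± 0.26 and -0.83 ± 0.24 (SE), but had adjusted p = 0.0743 and 0.119. Cholesterol synthesis and SREBP2 targets had the lowest median of the metabolic lists, -0.36 over 26 genes beside -0.01 over all tested, with 22 of 26 below 0, where 47.4% of all tested lay above it. It had 0 calls and, at an unadjusted p under 0.05, 0 members higher and 7 lower, beside 4.4% and 6.72% of all tested. Sc5d, a sterol desaturase, was 6.83, 6.12 and 6.44 in the steady mice and 5.64, 5.51 and 6.01 in the jet-lagged mice (adjusted p = 0.0513), and Hmgcs1 was 7.04, 5.94 and 5.56 in the steady mice and 4.95, 4.70 and 5.93 in the jet-lagged mice (adjusted p = 0.269). Of 22 lipid droplet genes Plin3, a perilipin, fell by 0.60 ± 0.13 (SE, adjusted p = 0.0332). Fatty acid oxidation and PPARA targets gave 0 calls of 37, with 5 higher and 1 lower at an unadjusted p under 0.05 and a median of 0.09. Their widest difference was in Cyp4a14, a fatty acid omega-hydroxylase and PPARA target, at 3.13, 4.65 and 4.86 in the steady mice and 5.43, 6.35 and 6.97 in the jet-lagged mice (adjusted p = 0.354).

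Of 28 cell cycle and DNA replication genes 1 fell, Ccnd1, and 0 rose, with a median of -0.32 and 23 of 28 below 0, where the median over all tested was -0.01 and 47.4% of them lay above 0. At an unadjusted p under 0.05, 9 of the 28 were lower and 0 higher, beside 6.72% and 4.4% of all tested. The list does not hold every gene of this kind. Cdt1, a replication licensing factor, Pold4, a subunit of DNA polymerase delta, Smc4, a condensin subunit, and Cenpq, a kinetochore protein, stood outside it and fell too, by 1.03, 0.77, 0.62 and 0.74 on the log2 scale. The histone gene H1f2, outside the list as well, rose by 1.07 ± 0.24 (SE, adjusted p = 0.0402). All of these genes outside the list were picked out after their values were seen. Of 26 Myc, p53 and growth control genes 1 rose, Gpc3. Myc itself was 0.10, 1.12 and -2.58 in the steady mice and -2.31, -2.82 and -2.81 in the jet-lagged mice and Gadd45g, a stress-induced growth arrest gene, was 5.78, 6.18 and 2.33 in the steady mice and 3.30, 3.02 and 2.97 in the jet-lagged mice. In both, steady mice 1 and 2 were high and steady mouse 3 lay among or below the jet-lagged mice, and neither passed (adjusted p = 0.285 and 0.521). Socs3, an inhibitor of cytokine signalling, was likewise lowest in steady mouse 3, at 3.38, 2.05 and 0.33 in the steady mice and 0.73, 1.11 and 0.59 in the jet-lagged mice.

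Amino acid and nitrogen metabolism gave 2 decreases and 0 increases among 30 periportal genes, beside 0.346% and 0.186% of all tested. Of the 30, 22 lay below 0. At an unadjusted p under 0.05, 2 were higher and 9 lower, beside 4.4% and 6.72% of all tested. Agxt, which detoxifies glyoxylate, was 7.85, 7.66 and 7.43 in the steady mice and 7.17, 6.82 and 6.97 in the jet-lagged mice, a difference of -0.65 ± 0.14 (SE), adjusted p = 0.0332. Slc38a4, an amino acid carrier, was 6.05, 5.99 and 5.70 in the steady mice and 5.41, 5.22 and 5.18 in the jet-lagged mice, a difference of -0.61 ± 0.14 (SE), adjusted p = 0.0471. The 22 pericentral genes gave 0 calls, with 15 below 0 and with 0 higher and 3 lower at an unadjusted p under 0.05. Of 29 unfolded protein response genes 1 rose, Atf3, and Sdf2l1, an ER chaperone cofactor, at 2.33, 2.06 and 0.86 in the steady mice and 0.91, -0.63 and 0.62 in the jet-lagged mice, did not pass (adjusted p = 0.0517). Of 23 growth hormone and sex-biased genes 1 rose, Nat8f5. Interferon response genes had a median of -0.27 over 26 genes with 21 below 0, beside a median of -0.01 and 47.4% above 0 over all tested. They gave 0 calls, and 0 members were higher and 8 lower at an unadjusted p under 0.05, beside 4.4% and 6.72% of all tested. Usp18, an interferon-induced protease, was 1.62, 1.26 and 1.04 in the steady mice and 0.97, 0.43 and 0.49 in the jet-lagged mice (adjusted p = 0.183).

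There were 0 calls in acute phase and complement genes (31), CAR and PXR targets (27), glucose metabolism (32), heat shock and cold-induced genes (21), iron handling (17), ribosome biogenesis (32), glutathione and NRF2 genes (33), respiratory chain genes (26) and extracellular matrix genes (23). At an unadjusted p under 0.05 each had 0 to 4 members higher and 0 to 6 lower, beside 4.4% and 6.72% of all tested. Heat shock and cold-induced genes had 4 of 21 higher and 0 lower. Glutathione and NRF2 genes had 1 of 33 higher and 6 lower. The glutathione transferase Gstm7, which is not on the list and was picked out after its value was seen, fell by 0.57 ± 0.12 (SE, adjusted p = 0.0362). The medians of the 9 lists ran from -0.10 to 0.18. Members with separate groups included Trib3, an inhibitor of AKT signalling, at 3.85, 2.86 and 1.69 in the steady mice and 1.42, 1.57 and 1.53 in the jet-lagged mice (adjusted p = 0.0513). Tfrc, the transferrin receptor, was -1.81, -1.30 and -0.28 in the steady mice and 0.32, 0.25 and -0.06 in the jet-lagged mice (adjusted p = 0.171). The serum amyloid gene Saa2 was 4.45, 4.78 and 4.21 in the steady mice and 4.90, 5.44 and 7.54 in the jet-lagged mice, with jet-lagged mouse 3 far above the rest (adjusted p = 0.445). No list beyond the clock and the periportal enzymes held more than 1 call, and none is set apart by a single call.

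At 12 weeks, in other mice at the same ZT, 412 genes and probes differed between the schedules (1.57%). Of the 49 that rose at 30 weeks, 41 were also higher and 20 were called higher at 12 weeks (0.718% of all tested). Of the 91 that fell, 90 were also lower and 32 were called lower (0.847% of all tested). The median difference over all tested at 12 weeks was 0.04. The skeletal muscle and pancreatic acinar markers had median differences of 3.35 and 3.65 at 12 weeks, beside 3.23 and 0.66 at 30 weeks. Both ages thus had higher markers of other tissues under jet lag. Whether this bears on the shared directions was not tested. The 52 shared calls are 37.1% of the 30-week and 12.6% of the 12-week calls. Both comparisons use different mice but 1 common estimate of each gene's spread. Arntl differed by 2.71 ± 0.50 (SE) at 12 weeks and by 2.75 ± 0.50 at 30 weeks, Nfil3 by 1.20 ± 0.26 and 1.48 ± 0.26, and Aqp8 by -1.56 ± 0.28 and -1.58 ± 0.28. Others were far apart. Gpc3 differed by -0.04 ± 0.33 (SE) at 12 weeks against 1.55 ± 0.33 at 30 weeks, and Atf3 by -0.31 ± 0.25 against 1.13 ± 0.25.

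The test of the difference between the ages itself gave 0 calls of 26320 (0%) in limma, with 1422 at an unadjusted p under 0.05 and a smallest adjusted p of 0.249. For Gpc3 the difference between ages was 1.59 ± 0.48 (SE), unadjusted p = 0.00302 and adjusted p = 0.882. For Atf3 it was 1.44 ± 0.37 (SE), unadjusted p = 0.000729 and adjusted p = 0.882. No gene was thus shown to respond differently at 30 than at 12 weeks, and with 3 mice a group this does not show that the responses were alike.

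**Figure D5:**
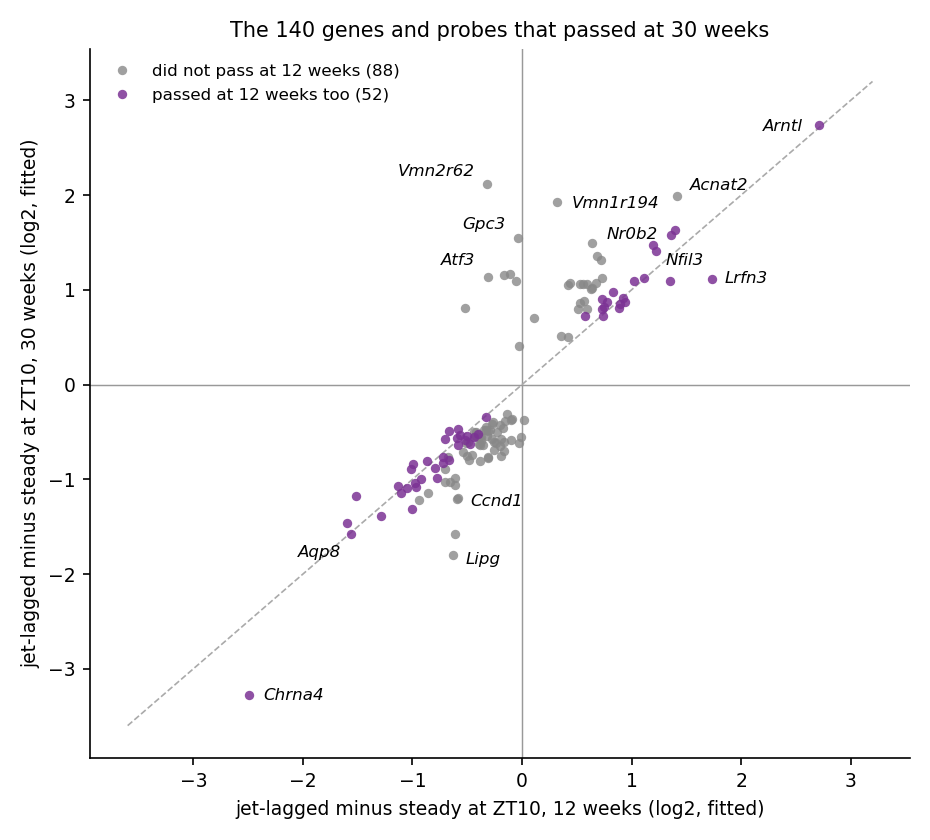
Fitted schedule difference at ZT10 (jet-lagged minus steady, log2) of the 140 genes and probes that passed at 30 weeks, at 30 weeks (vertical axis) against 12 weeks (horizontal axis); purple points passed at 12 weeks too (52), grey ones did not (88), and the dashed line marks equal differences. Arntl and Aqp8 lie on the line, while Gpc3, Atf3 and Vmn2r62 lie near or left of 0 at 12 weeks.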

How the data were processed

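Liver RNA was labelled with Cy3 and hybridised to a 1-colour Agilent array, 1 mouse an array. The deposited scanner files hold the processed signal as intensity, background-subtracted by Agilent Feature Extraction per the file headers, which give version 11.0.1.1 (9.1 in the submitters' processing notes). A table of the authors' own log2 values was deposited too, normalised in a way not given in the sources used here (batch removal is named in the labels), which served as an alternative. Here log2 signal was taken minus each array's 75th percentile, control spots and outlier flags were left out, and a probe was kept if every array of some group had it well above background (30487 of 55681). The 26320 features are the brightest probe of each of 14082 symbols, updated through a RefSeq table (GRCm38.p6), and 12238 unnamed probes. The depth of arrays has no read count, and their number limits precision. limma 3.58.1 (R 4.3.3) fitted the means of all 12 groups with the slide as a random block (correlation 0.25) and Benjamini-Hochberg adjustment at 0.05, two-sided. Contrasts were jet-lagged minus steady at ZT10 and 30 weeks, the same minus that at 12 weeks, and the same minus that at ZT18. The fit was tested on simulated data.

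Genes named are the 10 of largest change in each direction among calls without overlap, the same among calls that hold with acinar and muscle marker means as covariates, the 6 largest of each direction in the other contrasts, every gene of the clock lists and at most 4 from any other list. The members and lists were chosen with earlier results of these data known. Alternatives were the slide unblocked or fixed, the 6 or 12 arrays alone, a replicate block, normexp (offset 50) on the median signal since no mean signal is in the files read, quantile and array-median scaling, other filters, the mean of probes, the marker covariates, the authors' deposited log2 table, and leaving out each array. Replicates are different mice. 1 clock gene counted in the lists is not reported here by name.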

Additional observations from a re-analysis of the deposited data

Results flagged for a closer look

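The schedule difference (jet-lagged minus steady) at 30 weeks differed between ZT10 and ZT18 by a test of that difference in limma for 425 genes and probes, and among named genes for those below. Each value is the log2 difference at ZT10 minus that at ZT18, all at adjusted p under 0.05. Among clock genes it was 4.92 for Arntl, 3.02 for Cry1, 2.25 for Nfil3 and 1.48 for Clock. It was -1.15 for Tef, -1.99 for Nr1d2, -2.64 for Bhlhe41, -4.11 for Dbp, -4.14 for Ciart and -5.18 for Nr1d1. Of these clock genes only Arntl and Nfil3 passed at ZT10 on their own. Outside the clock lists it was 3.20 for the histone gene H3c15, 2.70 for Acnat2, 2.70 for Ppp1r3c, which targets protein phosphatase 1 to glycogen, and 2.67 for Ube2u. It was -2.69 for Ccne1 (cyclin E1), -3.02 for Lipg and -5.42 for Rgs16. Muscle and acinar marker means differed between arrays of these groups, and with both as covariates 255 genes and probes were called instead of 425.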

How the results depend on the processing

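The number of calls at ZT10 and 30 weeks (140) depended strongly on the processing. It was 86 without the slide block, 8 with a fixed slide block, 0 with the 6 arrays alone, 0 with a replicate block, 22 without the filter on dim probes, 11 with marker covariates and 481 in the authors' deposited log2 table, and it ran from 0 to 422 when single mice were left out. Without the arrays highest in acinar or muscle markers, an alternative chosen after seeing the data, it was 18. It was 182 with normexp, 144 with quantile and 170 with array-median scaling, and the share of lower calls moved from 65.0% to 75.8% with normexp, 54.5% without the filter, 45.5% with covariates, 39.5% without jet-lagged mouse 2 and 33.3% without the arrays highest in markers. All 140 kept their direction wherever a fit tested them, as groups without overlap nearly fix, 0 were called in all 6 fits that leave out a mouse, and 103 of 107 with a value in the authors' table were called there. The contrast of ages stayed at 0 (0 to 1 when single mice were left out). The ZT10 to ZT18 contrast (425) gave 65 with a fixed slide block, 121 with the 12 arrays alone, 204 with a replicate block, 155 without the filter, 255 with covariates, 1262 in the authors' table, 208 without the arrays highest in markers and 189 to 513 when single mice were left out. Same-numbered mice at ZT10 and 30 weeks had deviations correlated at 0.01, -0.10 and 0.08. Steady mice 1, 2 and 3 correlated best with jet-lagged mice 2, 1 and 3, and steady mouse 2 shares a slide with jet-lagged mouse 1. With 3 mice a group, these correlations cannot settle whether mouse numbers pair the mice. Of 4014 values of 205 named genes under alternatives, 293 lost a call, 55 gained one, 0 called ones changed sign, and 104 of 3411 uncalled ones did. Dim genes near background have the least certain sizes.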

Other observations

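Some probes named in the array's design only by a genome region (mm9 coordinates) also passed, and they were picked out after their values were seen. Of 5987 such probes tested 14 were called. On the minus strand of chromosome 17, all 5 tested probes of the overlapping regions chr17:32035750-32056000 and chr17:32044823-32045974 rose, by 1.01 to 1.07 on the log2 scale (adjusted p 0.0135 to 0.0188), and their difference at ZT10 exceeded that at ZT18 by 1.86 to 2.09. Probes of 1 transcript are not independent. On chr16:86770170-86874921, minus strand, 2 of 3 tested probes fell, by -1.03 and -0.99, and the third differed by -0.55 without passing (adjusted p = 0.103). On chr19:36699712-36763966, minus strand, the probes disagreed: 1 of 2 fell, with a difference of -1.58, and the other differed by 0.53 without passing (adjusted p = 0.836).

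Steady mouse 3 lay nearest to the jet-lagged mice in 96 of the 140 calls, steady mouse 2 in 32 and steady mouse 1 in 12. On the other side jet-lagged mouse 1 lay nearest to the steady mice in 72, mouse 3 in 50 and mouse 2 in 18.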
